A study of Mus musculus with 6 samples.

Results

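The 10 genes described here encode the 5 subunits of the transcription factor NF-κB (*Nfkb1*, *Nfkb2*, *Rel*, *Rela* and *Relb*) and 5 inhibitors or regulators of it (*Nfkbia*, *Nfkbie*, *Nfkbiz*, *Tnfaip3* and *Bcl3*). They were taken by exact symbol and are 10 of the 24346 gene symbols measured. All 10 were among the 11301 genes with an FPKM (reads scaled for the length of the transcript and the total of the library) of 1 or more in some mouse, which were tested. RNA-Seq had been performed, with 1 library per mouse, on osteoclast precursors sorted as EGFP+ bone marrow cells of the calvaria from CX3CR1-EGFP knock-in mice, a strain whose reporter is expressed from the *Cx3cr1* locus in the monocyte lineage. Into the periosteum over the calvaria, all 6 mice had been injected with LPS (lipopolysaccharide) at 20 mg/kg. Starting that day, 3 mice were given ABT-317, a JAK1-selective inhibitor, orally at 60 mg/kg in 2 doses per day for 5 days, whereas 3 vehicle-treated mice received LPS and vehicle on the same schedule. The age of the sequenced mice is not given in the sources used here, and mice without LPS were not analysed here. The comparison asks whether feedback genes of NF-κB differ between the groups alongside target genes of IL-6 and STAT3, which signal through JAK kinases.

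NF-κB subunits bind DNA as dimers, and IκB proteins hold these dimers in the cytoplasm until the IκB kinase marks the IκB proteins for degradation. In the canonical pathway, LPS, TNF and IL-1 free dimers that contain RELA or REL, whereas in the alternative pathway the kinase NIK, the product of *Map3k14*, drives processing of the *Nfkb2* product and frees dimers with RELB. Several inhibitors are targets of NF-κB themselves and so form feedback loops, and RANKL uses both pathways in osteoclast formation, which fails in mice that lack *Nfkb1* together with *Nfkb2*.

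The FPKM of all symbols summed to 775790, 740921 and 752098 in mice 1 to 3 of the vehicle group and to 758529, 688372 and 739909 in those of the JAK inhibitor group. Values of each group are given in this order throughout. Such sums say nothing of the number of reads, which is unknown. A rough estimate of relative depth, from the commonest ratio of low values in each of 15 pairs of mice, spanned 1.16-fold and rests on only 24 to 48 genes per pair. Vehicle-treated mouse 3 stood apart from its group. On the log2(FPKM + 1) scale it lay more than 2-fold above or below both other vehicle-treated mice for 255 of the 11301 tested genes, against 54 to 65 genes for each of the other 5 mice within their own groups. It also had the highest value of 7 of the 10 NF-κB genes, against 25.3% of all tested genes, and differences of the NF-κB genes are therefore given with and without it. Each of the 8 monocyte lineage markers examined was above an FPKM of 1 in every mouse. Of these, *Csf1r*, the receptor for macrophage colony-stimulating factor, ranged from 355 to 422, and *Cx3cr1* was 15.5 in vehicle-treated mouse 3 and between 29.5 and 36.1 in the others.

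With JAK inhibitor, mRNA levels in osteoclast precursors of the inhibitors *Nfkbia* and *Tnfaip3*, the coactivator *Bcl3* and the subunits *Relb* and *Nfkb2* were lower than in every vehicle-treated mouse, and that of *Nfkbiz* was higher. The group means of these 5 lower genes were 44.6% to 69.3% of the vehicle means, whereas *Rela* was nearly level at 94.9%. None of these differences passed the adjusted threshold: with limma and Benjamini-Hochberg adjustment, 0 of the 10 genes had an adjusted p under 0.05, against 15 of all tested genes (0.133%). At an unadjusted p under 0.05, 5 of the 10 were lower with JAK inhibitor, against 9.4% of all tested genes, and 1 was higher, against 6.57%. Groups did not overlap for the same 6 genes, 5 of them lower, against 12.1% of all tested genes, and 1 higher, against 9.92%. The median difference (JAK inhibitor minus vehicle in log2(FPKM + 1), which understates differences of low values) was -0.31 for the 10 genes and -0.0035 for all tested genes. Without vehicle-treated mouse 3, the median of the 10 genes was -0.22, with 5 lower and 0 higher at an unadjusted p under 0.05 and 2 past the adjusted threshold. Leaving this mouse out also brought the number of all tested genes past the adjusted threshold from 15 to 94, of 11130, with 904 lower and 600 higher at an unadjusted p under 0.05. Levels are per sorted population, so fewer cells of a type that expresses a gene and less RNA per cell cannot be told apart.

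**Figure D1:**
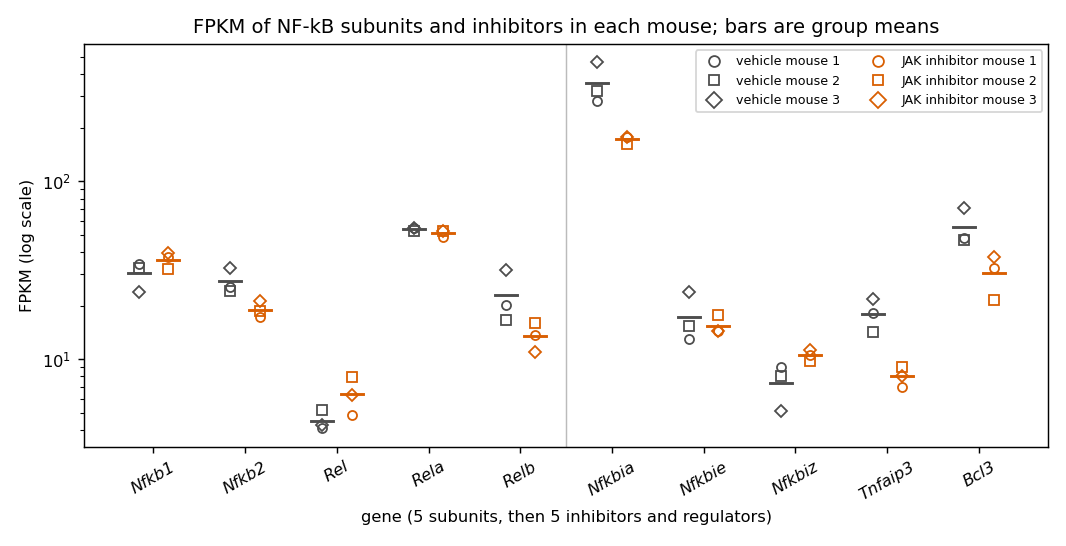
FPKM on a log scale of the 5 NF-κB subunits (left) and the 5 inhibitors and regulators (right) in each of the 3 vehicle-treated and 3 JAK inhibitor-treated mice, with bars at the group means. *Nfkbia* had the highest level in both groups and *Rel* the lowest, and for *Nfkb2*, *Relb*, *Nfkbia*, *Tnfaip3* and *Bcl3* the groups did not overlap and vehicle was higher.

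FPKM values allow levels to be ordered between genes. In vehicle-treated mice the mean FPKM descended from *Nfkbia* (357 ± 97.3, SD, n = 3) through *Bcl3*, *Rela*, *Nfkb1*, *Nfkb2*, *Relb*, *Tnfaip3*, *Nfkbie* and *Nfkbiz* to *Rel* (4.51 ± 0.596, SD, n = 3). Neighbours in this order overlapped between mice except at 3 steps, from *Nfkbia* to *Bcl3*, from *Rela* to *Nfkb1* and from *Nfkbie* to *Nfkbiz*. In JAK inhibitor-treated mice the order ran *Nfkbia*, *Rela*, *Nfkb1*, *Bcl3*, *Nfkb2*, *Nfkbie*, *Relb*, *Nfkbiz*, *Tnfaip3* and *Rel*. *Nfkbia* thus kept the first place and *Rel* the last, while *Tnfaip3* stood in place 7 with vehicle and in place 9 with JAK inhibitor. In this second order the neighbours that did not overlap were *Nfkbia* and *Rela*, *Rela* and *Nfkb1*, *Bcl3* and *Nfkb2*, and *Nfkbiz* and *Tnfaip3*.

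Among the subunits, those of the alternative pathway were the lower ones. *Nfkb2* (chr19:46304320-46312385, plus strand, GENCODE M21 on GRCm38), which encodes the precursor that is processed in that pathway, had FPKM values of 25.5, 24.04 and 32.6 with vehicle and of 17.2, 18.6 and 21.2 with JAK inhibitor. The lowest vehicle-treated mouse was above the highest JAK inhibitor-treated mouse, and vehicle-treated mouse 3 was the highest of all. The mean was 27.4 ± 4.59 with vehicle and 18.98 ± 2.04 with JAK inhibitor (SD, n = 3 each). The log2 difference was -0.50 with a standard error of 0.14 (limma, unadjusted p = 0.0067, adjusted p = 0.157, 0.109 to 0.362 over the alternatives), and it was -0.37 without vehicle-treated mouse 3. Exons of *Nfkb2* overlap those of *Psd* on the other strand, as well as those of the noncoding gene *AC114539.1*, which was not analysed here, and since the sources name both a stranded kit and a kit without strand information, reads of these genes cannot be told apart. *Psd* had an FPKM between 0.299 and 0.846 in the 6 mice.

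*Relb* (chr7:19606217-19629438, minus strand), whose product is the partner freed in the alternative pathway, had FPKM values of 20.2, 16.6 and 31.8 with vehicle and of 13.6, 16.0 and 11.04 with JAK inhibitor. The groups were separated by a narrow gap, between vehicle-treated mouse 2 and JAK inhibitor-treated mouse 2, and vehicle-treated mouse 3 was again the highest. The mean was 22.9 ± 7.93 with vehicle and 13.6 ± 2.50 with JAK inhibitor (SD, n = 3 each). The log2 difference was -0.68 with a standard error of 0.23 (limma, unadjusted p = 0.0161, adjusted p = 0.206, 0.106 to 0.444 over the alternatives). It was -0.42 without vehicle-treated mouse 3, and the unadjusted p was 0.0654 without JAK inhibitor-treated mouse 3, where the difference was -0.54. An exact 2-sided permutation test cannot go below p = 0.1 with 3 mice per group, and it gave that p for both *Nfkb2* and *Relb*.

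Of the 3 canonical subunits, *Nfkb1* and *Rel* had higher means with JAK inhibitor and *Rela* a slightly lower mean. *Rela* (chr19:5637483-5648130, plus strand), the main activating subunit, had FPKM values of 54.5, 52.8 and 54.9 with vehicle and of 48.4, 52.9 and 52.6 with JAK inhibitor. It was the least variable of the 10 genes, spanning 0.18 on the log2 scale over the 6 mice, and its log2 difference was -0.08 with a 95% confidence interval from -0.28 to 0.13 in limma, -0.06 without vehicle-treated mouse 3 and -0.03 without JAK inhibitor-treated mouse 1. *Nfkb1* (chr3:135584655-135691547, minus strand), whose product pairs with RELA, had FPKM values of 34.5, 32.7 and 24.0 with vehicle and of 37.4, 31.9 and 39.6 with JAK inhibitor. The groups overlapped, and the value that set the vehicle mean apart was the low one of vehicle-treated mouse 3. The log2 difference of *Nfkb1* was 0.26 with an interval from -0.08 to 0.61, and it was 0.10 without that mouse. *Rel* (chr11:23736847-23770970, minus strand), which encodes the subunit c-Rel of blood cells, had FPKM values of 4.09, 5.19 and 4.25 with vehicle and of 4.86, 7.95 and 6.30 with JAK inhibitor. Values overlapped between JAK inhibitor-treated mouse 1 and vehicle-treated mouse 2 only. The log2 difference of *Rel* was 0.40 with an interval from -0.03 to 0.84 (limma, unadjusted p = 0.0641), 0.37 without vehicle-treated mouse 3 and 0.56 (unadjusted p = 0.0195) without JAK inhibitor-treated mouse 1. Without JAK inhibitor-treated mouse 2, which had the highest value, it was 0.25 (limma, unadjusted p = 0.236).

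The summed FPKM of the 5 subunits was 138.8, 131.3 and 147.5 with vehicle and 121.5, 127.4 and 130.8 with JAK inhibitor. Every JAK inhibitor-treated mouse was below every vehicle-treated mouse, by a narrow gap at the nearest, with means of 139 ± 8.09 and 127 ± 4.69 (SD, n = 3 each). *Rela* made up 38.9% ± 1.54 of this sum with vehicle and 40.5% ± 0.873 with JAK inhibitor (SD, n = 3 each). The share of *Nfkb2* was 19.6% ± 2.18 against 15.0% ± 1.09, and that of *Relb* was 16.2% ± 4.69 against 10.8% ± 2.11. The share of *Nfkb1* was 22.0% ± 4.98 against 28.7% ± 3.18, and that of *Rel* was 3.26% ± 0.601 against 5.02% ± 1.13. Vehicle-treated mouse 3 widened these gaps: with vehicle, *Nfkb1* made up 24.9%, 24.9% and 16.2% of the sum in mice 1 to 3, and *Relb* 14.6%, 12.6% and 21.5%. At the level of mRNA, the mixture thus held less *Nfkb2* and *Relb* relative to the canonical subunits in JAK inhibitor-treated mice, as values without a test. The mRNA of the kinase NIK, *Map3k14*, went the other way, with groups that overlapped. Its log2 difference was 0.34 (limma, unadjusted p = 0.122), and 0.22 when vehicle-treated mouse 3 was left out. Activity of the alternative pathway was not tested.

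Ratios within each mouse show the same comparison independently of library size. *Nfkb2* relative to *Nfkb1* was 0.740, 0.735 and 1.36 with vehicle and 0.458, 0.582 and 0.535 with JAK inhibitor. *Relb* relative to *Rela* was 0.371, 0.314 and 0.579 with vehicle and 0.282, 0.303 and 0.210 with JAK inhibitor. *Rel* relative to *Rela* was 0.0750, 0.0982 and 0.0774 with vehicle and 0.1004, 0.150 and 0.1197 with JAK inhibitor. In each of these ratios the groups did not overlap, although vehicle-treated mouse 2 and JAK inhibitor-treated mouse 2 lay close together for *Relb* to *Rela*, and vehicle-treated mouse 2 and JAK inhibitor-treated mouse 1 for *Rel* to *Rela*. *Nfkbia* relative to *Rela*, an inhibitor against the subunit it binds, was 5.18, 6.09 and 8.51 with vehicle and 3.69, 3.08 and 3.36 with JAK inhibitor. The means of this ratio were 6.59 ± 1.72 and 3.38 ± 0.303 (SD, n = 3 each), so the mRNA of the inhibitor was lower relative to that of the subunit in each JAK inhibitor-treated mouse than in any vehicle-treated mouse.

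**Figure D2:**
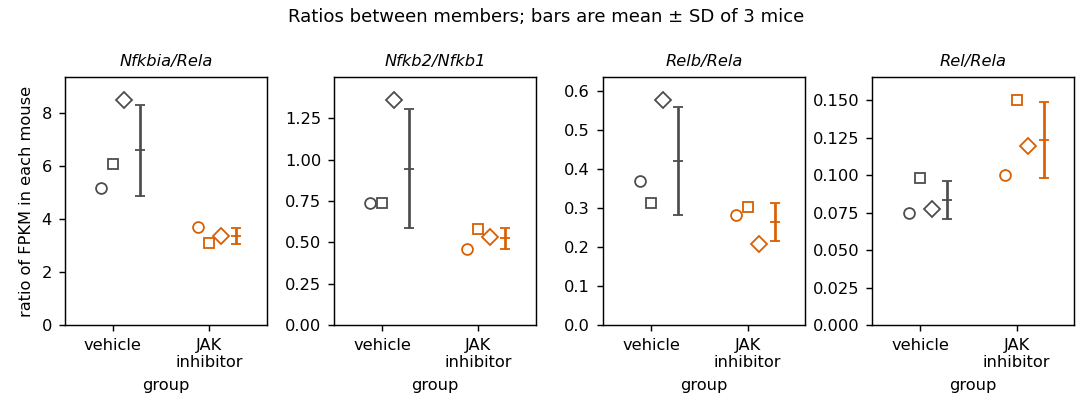
Ratio of the FPKM of 2 genes within each mouse, for 4 pairs of NF-κB genes. Circles, squares and diamonds are mice 1, 2 and 3 of each group and bars are the mean ± SD of 3 mice. *Nfkbia*/*Rela*, *Nfkb2*/*Nfkb1* and *Relb*/*Rela* were lower and *Rel*/*Rela* was higher in every JAK inhibitor-treated mouse, and the first 3 ratios peaked in vehicle-treated mouse 3.

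The lowest values relative to vehicle were those of 2 feedback inhibitors. *Nfkbia* (chr12:55489410-55492647, minus strand) encodes IκBα, which binds NF-κB dimers and is resynthesised after their activation. Its FPKM was 282, 322 and 467 with vehicle and 179, 163 and 177 with JAK inhibitor. The JAK inhibitor-treated mice lay within a narrow range below all vehicle-treated mice, whereas the vehicle-treated mice were spread out, with mouse 3 at the top. The mean was 357 ± 97.3 with vehicle and 173 ± 8.43 with JAK inhibitor (SD, n = 3 each), which was 48.4% of the vehicle mean. The log2 difference was -1.01 with a standard error of 0.17 and a 95% confidence interval from -1.38 to -0.64 (limma, unadjusted p = 0.000185, adjusted p = 0.0688). All 3 JAK inhibitor-treated mice had the lower values, and by exact permutation p was 0.1, the limit for this design.

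Whether *Nfkbia* passed the adjusted threshold rested on the mice included and on the settings. Its adjusted p in limma was 0.0445 without vehicle-treated mouse 1, 0.0499 without mouse 2 and 0.00876 without mouse 3, with differences of -1.16, -1.07 and -0.80. It was between 0.221 and 0.25 when any of the JAK inhibitor-treated mice was left out. With all mice kept, it was 0.0482 with a filter of 1 FPKM in 3 mice, 0.0263 with library weights and 0.0397 with a block for replicate number. Over all 14 alternative settings it ranged from 0.00876 to 0.25 and was under 0.05 in 6.

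*Tnfaip3* (chr10:19000910-19015657, minus strand) encodes a ubiquitin-editing enzyme that ends signaling from TNF and Toll-like receptors to the IκB kinase. Its FPKM was 18.1, 14.2 and 21.7 with vehicle and 7.02, 9.05 and 8.03 with JAK inhibitor. Every JAK inhibitor-treated mouse was below every vehicle-treated mouse by a clear gap. The mean was 17.99 ± 3.77 with vehicle and 8.03 ± 1.02 with JAK inhibitor (SD, n = 3 each), which was 44.6% of the vehicle mean, the lowest share of the 10 genes. The log2 difference was -1.06 with a standard error of 0.17 and an interval from -1.45 to -0.67 (limma, unadjusted p = 0.000171, adjusted p = 0.0665). Without vehicle-treated mouse 3 it was -0.92 with an adjusted p of 0.0429, and without vehicle-treated mouse 2 it was -1.21 with an adjusted p of 0.0257. Over the 14 alternatives the adjusted p ranged from 0.0257 to 0.228 and was under 0.05 in 4.

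*Bcl3* (chr7:19808462-19822770, minus strand) encodes an atypical IκB protein that acts in the nucleus with dimers of the *Nfkb1* or *Nfkb2* products. Its FPKM was 48.1, 46.9 and 70.7 with vehicle and 32.5, 21.6 and 37.4 with JAK inhibitor. The groups did not overlap, and the spread among JAK inhibitor-treated mice was wider than for *Nfkbia*. The mean was 55.2 ± 13.4 with vehicle and 30.5 ± 8.12 with JAK inhibitor (SD, n = 3 each). The log2 difference was -0.84 with a standard error of 0.22 (limma, unadjusted p = 0.00381, adjusted p = 0.133, 0.0499 to 0.32 over the alternatives), and it was -0.66 without vehicle-treated mouse 3. An exon of *Bcl3* overlaps the antisense gene *Gm16175*, which was not analysed here.

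The other 2 regulators did not go the same way. *Nfkbiz* (chr16:55811375-55838899, minus strand) encodes IκBζ, a nuclear cofactor that is needed for a set of secondary response genes such as *Lcn2*. Its FPKM was 8.98, 8.01 and 5.08 with vehicle and 10.6, 9.74 and 11.3 with JAK inhibitor, so that it was higher in all 3 JAK inhibitor-treated mice. The log2 difference was 0.49 with a standard error of 0.19 (limma, unadjusted p = 0.0317, adjusted p = 0.264, 0.209 to 0.487 over the alternatives). It was 0.28 with an unadjusted p of 0.0883 without vehicle-treated mouse 3, which had the lowest value, and the unadjusted threshold was also missed without JAK inhibitor-treated mouse 1 or mouse 3. *Nfkbie* (chr17:45555703-45563169, plus strand) encodes IκBε, a further cytoplasmic inhibitor. Its FPKM was 13.01, 15.3 and 23.7 with vehicle and 14.4, 17.6 and 14.3 with JAK inhibitor. The JAK inhibitor-treated mice lay within the range of the vehicle-treated mice, whose mouse 3 was far the highest, and the log2 difference of -0.12 (interval from -0.58 to 0.34) turned to 0.12 without that mouse. With any of the other mice left out it lay between -0.29, without vehicle-treated mouse 1, and -0.07, without JAK inhibitor-treated mouse 3. By the exact permutation test p was 0.8 for *Nfkbie*, and it was 0.1, the limit of the test, for *Tnfaip3*, *Bcl3* and *Nfkbiz*.

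**Figure D3:**
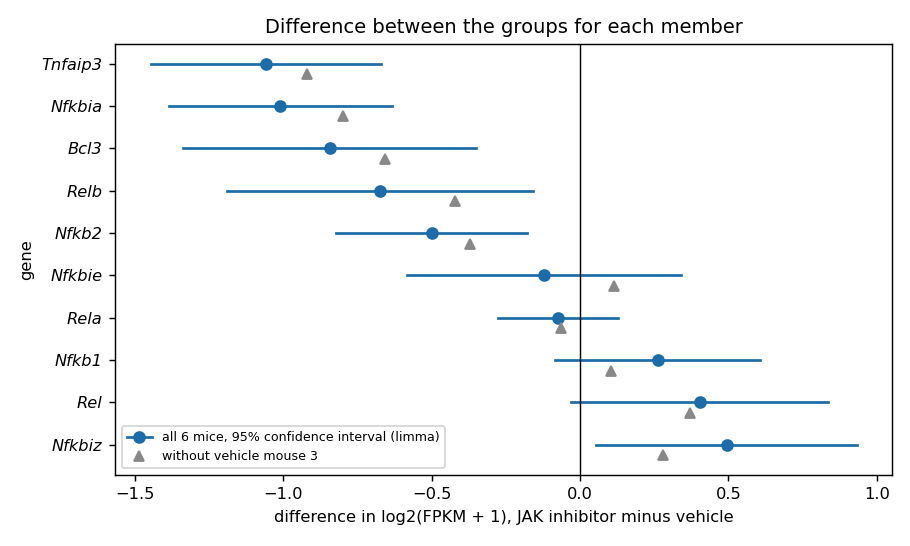
Difference in log2(FPKM + 1) between JAK inhibitor-treated and vehicle-treated mice for each of the 10 NF-κB genes, ordered by size. Circles are the estimates from all 6 mice with 95% confidence intervals from limma, and triangles are the estimates without vehicle-treated mouse 3. The estimates ran from -1.06 for *Tnfaip3* to 0.49 for *Nfkbiz*, and without vehicle-treated mouse 3 each was closer to 0, with that of *Nfkbie* changing sign from -0.12 to 0.12.

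Promoter sequences are shown for the genes with lower values and, for contrast, for *Rel*, whose values were not lower. Windows of 300 bases, from 250 before to 50 after the transcription start, were taken from RefSeq on GRCm38.p6 and matched 7 of the 10 genes by symbol, *Nfkb1*, *Relb* and *Nfkbiz* being the others. The windows were searched on both strands for the κB consensus, a motif of 10 letters, and for a STAT motif of 9 letters. The κB consensus was found in 6 of the 7 genes, all but *Rela*, whereas 9.55% of the 27025 genes with a window had it. The STAT motif was found in 1 of the 7, *Nfkb2*, where it began 148 bases before the start, and also in 9.55% of the 27025 genes. Windows of *Nfkbia* (chr12:55492598-55492897, minus strand), *Tnfaip3* (chr10:19015361-19015660, minus strand), *Bcl3* (chr7:19822706-19823005, minus strand), *Nfkb2* (chr19:46304487-46304786, plus strand, the first of 3 windows) and *Rel* (chr11:23770920-23771219, minus strand) are printed from 5′ to 3′ along the gene, with every κB match in capitals.
Nfkbia: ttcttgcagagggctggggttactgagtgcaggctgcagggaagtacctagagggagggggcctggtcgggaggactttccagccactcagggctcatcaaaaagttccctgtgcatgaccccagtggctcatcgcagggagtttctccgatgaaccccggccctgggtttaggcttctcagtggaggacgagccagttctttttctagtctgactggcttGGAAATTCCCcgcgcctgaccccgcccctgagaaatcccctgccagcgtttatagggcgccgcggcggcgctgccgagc
Tnfaip3: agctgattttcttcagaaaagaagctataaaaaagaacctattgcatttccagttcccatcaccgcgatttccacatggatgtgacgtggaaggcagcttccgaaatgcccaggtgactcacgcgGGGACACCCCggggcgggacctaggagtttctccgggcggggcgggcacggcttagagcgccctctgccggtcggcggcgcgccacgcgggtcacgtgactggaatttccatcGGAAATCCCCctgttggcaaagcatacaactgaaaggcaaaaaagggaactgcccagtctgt
Bcl3: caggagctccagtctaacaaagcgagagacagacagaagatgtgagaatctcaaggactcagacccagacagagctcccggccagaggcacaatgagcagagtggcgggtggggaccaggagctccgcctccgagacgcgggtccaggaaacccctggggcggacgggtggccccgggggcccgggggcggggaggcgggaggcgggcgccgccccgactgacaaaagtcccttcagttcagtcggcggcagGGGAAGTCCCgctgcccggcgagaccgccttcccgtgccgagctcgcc
Nfkb2: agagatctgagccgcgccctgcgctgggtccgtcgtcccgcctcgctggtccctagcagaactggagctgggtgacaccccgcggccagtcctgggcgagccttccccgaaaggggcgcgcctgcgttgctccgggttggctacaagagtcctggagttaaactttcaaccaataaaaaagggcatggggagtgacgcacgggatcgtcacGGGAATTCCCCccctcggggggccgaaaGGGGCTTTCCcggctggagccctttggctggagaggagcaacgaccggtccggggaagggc
Rel: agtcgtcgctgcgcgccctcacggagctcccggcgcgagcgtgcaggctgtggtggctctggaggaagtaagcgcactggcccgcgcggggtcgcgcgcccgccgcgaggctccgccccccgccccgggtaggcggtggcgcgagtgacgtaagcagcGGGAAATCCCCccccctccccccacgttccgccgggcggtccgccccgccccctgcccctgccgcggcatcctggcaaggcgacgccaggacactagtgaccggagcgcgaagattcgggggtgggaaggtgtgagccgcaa
In these windows the κB match of *Nfkbia* began 29 bases before the start, those of *Tnfaip3* began 125 and 12 bases before it, and that of *Bcl3* lay just after it. A second window of *Tnfaip3* (chr10:19011914-19012213, minus strand), not printed here, had 0 κB matches. *Nfkb2* had overlapping matches that began 39 and 38 bases before the start and a further match that began 11 bases before it. The matches of *Rel* overlapped each other and began 92 and 91 bases before the start. The κB consensus was thus present both in genes whose values were lower and in *Rel*, and a match of letters does not show that a factor was bound.

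The genes whose pattern over the 6 mice was most like those of the 3 most variable NF-κB genes were found by the root mean square difference of log2 values, each centred on its own mean. For *Bcl3*, which spanned 1.67 on the log2 scale, these were *Itm2a* (0.063), *Acpp* (0.109) and *Ggt5* (0.122). *Itm2a* had FPKM values of 5.97, 5.30 and 8.11 with vehicle and of 3.62, 1.86 and 4.34 with JAK inhibitor, at a lower level than *Bcl3* but with the same order of mice from vehicle-treated mouse 3 down to JAK inhibitor-treated mouse 2. For *Nfkbia*, which spanned 1.51, they were *Ddit4* (0.063), *Gm14548* (0.081) and *Avpi1* (0.112). For *Tnfaip3*, which spanned 1.503, they were *Il1f9* (0.113), *Mctp2* (0.142) and *Bdh2* (0.150). *Il1f9* had FPKM values of 15.0, 13.8 and 16.0 with vehicle and of 5.45, 7.42 and 6.42 with JAK inhibitor, and in both genes the groups were clearly apart.

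Kinases, adaptors and ubiquitin ligases upstream of NF-κB, some of which restrain it, had differences on both sides of 0. Of 21 listed genes, all tested, 0 passed the adjusted threshold in limma, 4 were lower (against 9.4% of all tested genes) and 1 was higher (6.57%) at an unadjusted p under 0.05, and the median log2 difference was -0.03. With 1 mouse left out this median ranged from -0.11, without vehicle-treated mouse 2, to -0.0048, without vehicle-treated mouse 1. *Ikbke*, an IκB kinase-related kinase, had FPKM values of 39.0, 37.0 and 52.6 with vehicle and of 24.4, 25.2 and 24.4 with JAK inhibitor, with a log2 difference of -0.76 (limma, adjusted p = 0.0877, 0.0349 to 0.27 over the alternatives). The other lower genes were *Irak3*, a brake on Toll-like receptor signaling (-0.57), *Birc3*, a ubiquitin ligase that is also a target of NF-κB (-0.41), and the adaptor *Myd88* (-0.34). Without vehicle-treated mouse 3, *Birc3* was at -0.27 and *Myd88* at -0.22, and neither met the unadjusted threshold. The 3 subunits of the IκB kinase itself had log2 differences of 0.32 for *Chuk*, 0.21 for *Ikbkb* and -0.11 for *Ikbkg*, the last of which was -0.06 without vehicle-treated mouse 3, -0.24 without JAK inhibitor-treated mouse 2 and 0.02 without JAK inhibitor-treated mouse 3. At the unadjusted threshold 2 genes were lower without vehicle-treated mouse 3 or JAK inhibitor-treated mouse 2, and the higher gene, *Chuk*, was lost from it without vehicle-treated mouse 1 or 2 or JAK inhibitor-treated mouse 2 or 3. Higher genes numbered 2 without JAK inhibitor-treated mouse 1 and 0 without mouse 2 or 3. Of all tested genes, 904 of 11130 were lower without vehicle-treated mouse 3 and 811 of 11239 without JAK inhibitor-treated mouse 2. Without JAK inhibitor-treated mouse 1, 2 or 3, those higher numbered 515 of 11223, 561 of 11239 and 543 of 11221. *Ikbke* and *Irak3* passed the adjusted threshold without vehicle-treated mouse 2 (0.0446 and 0.0368), and *Ikbke* alone without mouse 3 (0.0349), settings in which 95 and 94 of all tested genes passed it.

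Among further inhibitors, none had a difference as large as those of *Nfkbia* and *Tnfaip3*. Of 15 listed genes, all tested, 0 passed the adjusted threshold in limma, 3 were lower (against 9.4% of all tested genes) and 0 higher at an unadjusted p under 0.05, and the median log2 difference was -0.06, or -0.12 without vehicle-treated mouse 2 and -0.03 without mouse 3. *Nfkbib*, which encodes IκBβ, had FPKM values of 60.5, 59.0 and 57.3 with vehicle and of 50.2, 43.8 and 50.7 with JAK inhibitor, a log2 difference of -0.29 (limma, adjusted p = 0.205, 0.159 to 0.437 over the alternatives). *Tnip3*, a partner of the *Tnfaip3* product, had a difference of -0.54 and *N4bp1* of -0.42, whereas *Nfkbil1* (-0.16) and the ubiquitin ligase *Itch* (0.25) had overlapping groups. *Nfkbil1* was at -0.09 without vehicle-treated mouse 3, -0.26 without JAK inhibitor-treated mouse 2 and -0.07 without JAK inhibitor-treated mouse 3. The count of lower genes was 1 without vehicle-treated mouse 1, vehicle-treated mouse 3 or JAK inhibitor-treated mouse 2, and 1 gene was higher without JAK inhibitor-treated mouse 1. Of all tested genes, 943 of 11237, 904 of 11130 and 811 of 11239 were lower in these settings, in this order. Without JAK inhibitor-treated mouse 1, 515 of 11223 were higher.

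Targets of NF-κB outside the family included many genes with lower values. Of 32 listed genes, 26 were tested, and 12 of these were lower (against 9.4% of all tested genes) and 0 higher at an unadjusted p under 0.05, with a median log2 difference of -0.41, while 0 passed the adjusted threshold in limma. Without vehicle-treated mouse 3, 24 of the genes were tested, of which 9 were lower and 1, *Vcam1*, was higher, with a median of -0.32, and 2 passed the adjusted threshold, where 904 of 11130 tested genes were lower, 600 were higher and 94 passed it. *Sod2*, the mitochondrial superoxide dismutase, had FPKM values of 69.8, 49.1 and 96.1 with vehicle and of 30.5, 30.02 and 32.6 with JAK inhibitor, a log2 difference of -1.13 (limma, adjusted p = 0.0877, 0.0149 to 0.272 over the alternatives). Differences were -1.84 for the chemokine *Ccl5*, -1.19 for the survival gene *Ier3*, -0.84 for the interleukin 1 receptor antagonist *Il1rn* and -0.73 for the chemokine *Ccl3*, each with groups that did not overlap. *Cxcl2*, a chemokine for neutrophils, was at an FPKM of 0.8 to 1.36 with vehicle and of 0.186 to 0.218 with JAK inhibitor, a difference of -0.84 that was -2.03 with a pseudocount of 0.1. The cytokine genes *Tnf* (-0.20) and *Il1b* (-0.45) had overlapping groups, and the transcription factor gene *Irf1* had a difference of -0.27 without overlap. The difference of *Tnf* was -0.06 without vehicle-treated mouse 1, -0.46 (limma, unadjusted p = 0.0258) without mouse 2 and -0.07 without mouse 3, and it was -0.11 without JAK inhibitor-treated mouse 1 and -0.29 without mouse 2. *Cxcl10* had a difference of 0.13 that was -0.41 without vehicle-treated mouse 3 and -0.19 without JAK inhibitor-treated mouse 2. *Vcam1* was also higher at the unadjusted threshold without JAK inhibitor-treated mouse 2. Without vehicle-treated mouse 2, 1 gene, *Sod2*, passed the adjusted threshold (adjusted p = 0.0149). *Il1a*, *Il12b*, *Cxcl1*, *Cxcl3*, *Ptgs2* and *Csf2* did not reach an FPKM of 1 in any mouse and were not tested.

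Target genes of IL-6 and STAT3 are set beside the NF-κB genes for scale. The lists are not separate pathways, for *Lcn2*, listed here, also needs the product of *Nfkbiz*. Of 22 listed genes, 20 were tested, and 10 were lower (against 9.4% of all tested genes) and 1 was higher (6.57%) at an unadjusted p under 0.05, with a median log2 difference of -0.32 and 0 past the adjusted threshold in limma. Without vehicle-treated mouse 3 the median was -0.25, with 8 lower and 1 higher, and 3 passed the adjusted threshold, as 2 did without vehicle-treated mouse 2, where 3 were higher at an unadjusted p, as were 805 of all 11228 tested genes. Of all tested genes, 94 passed it without mouse 3 and 95 without mouse 2, against 15 with all mice. With all mice kept, 1 list gene passed it with a pseudocount of 0.1 or quantile normalization, where 22 and 18 of all tested genes did. With the filter in 3 mice or library weights 2 list genes passed it (34 and 63 of all tested genes), and with the replicate block 3 did (67). *Socs3*, the feedback inhibitor of JAK signaling, had FPKM values of 19.9, 9.48 and 52.3 with vehicle and of 8.30, 7.74 and 9.28 with JAK inhibitor. Its log2 difference of -1.27 (limma, adjusted p = 0.238, 0.0517 to 0.453 over the alternatives) was -0.65 without vehicle-treated mouse 3, so that mouse moved it more than it moved *Nfkbia* (-1.01 and -0.80). The acute phase genes *Saa3* (-3.63), *Lcn2* (-1.66) and *Hp* (-0.84) and the decoy receptor *Il1r2* (-3.86) were lower, and the receptor chain *Il6st* was higher (0.62). Without vehicle-treated mouse 3 these differences were -2.93, -1.39, -0.61, -2.44 and 0.53, in this order. *Il1r2* is also among the neutrophil markers used here, and *Vcam1* among the macrophage markers.

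**Figure D4:**
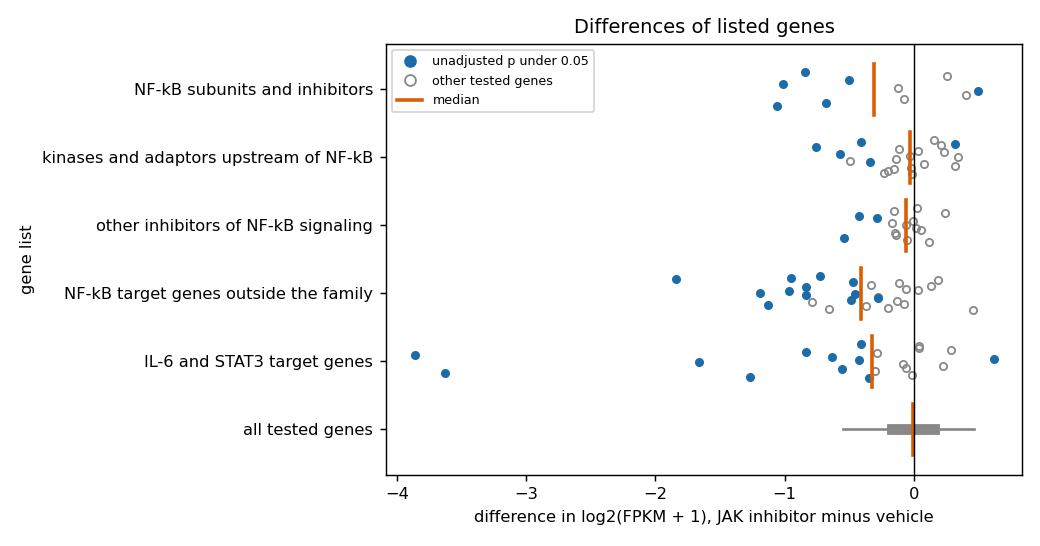
Difference in log2(FPKM + 1) between JAK inhibitor-treated and vehicle-treated mice for each tested gene of 5 lists, with filled points for an unadjusted p under 0.05 in limma and a bar at the median of each list. The lowest row gives all 11301 tested genes, with a thick line over the middle 50% from -0.17 to 0.16 and a thin line over the middle 90% from -0.55 to 0.47. Medians of the NF-κB genes (-0.31), NF-κB targets (-0.41) and STAT3 targets (-0.32) lay below 0, and those of upstream kinases and adaptors (-0.03) and of other inhibitors (-0.06) lay near it.

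Markers of several cell types differed between the groups in the direction of the NF-κB genes or against it, and their part in the result was not tested. The summed FPKM of 10 macrophage markers was 427, 432 and 254 with vehicle and 232, 139 and 160 with JAK inhibitor. *C1qb* was the most abundant of these, 4 of 8 tested markers were lower at an unadjusted p under 0.05 (against 9.4% of all tested genes), and *Timd4* and *Siglec1*, which mark resident macrophages, were below 1 in every mouse. These lower markers were *C1qa* (log2 difference of -1.66), *C1qb* (-1.78), *C1qc* (-1.51) and *Mertk* (-1.57). The others were at -0.70 for *Mrc1*, -0.29 for *Cd163*, -0.10 for *Adgre1* and 0.46 for *Vcam1*. Of the tested macrophage markers, all but *C1qb* and *Mertk* had overlapping groups. The 6 osteoclast markers summed to 258, 166 and 576 with vehicle and to 111, 107 and 112 with JAK inhibitor, led by *Acp5*, with all 5 tested markers lower (against 9.4%) and *Calcr* at 0 in every mouse. The osteoclast sum was highest in vehicle-treated mouse 3, as were *Nfkbia*, *Tnfaip3*, *Bcl3*, *Relb* and *Nfkb2*, whereas the macrophage sum was lowest there among the vehicle-treated mice. Of 8 T and NK cell markers, the 7 measured summed to 332, 365 and 170 with vehicle and to 562, 500.3 and 491 with JAK inhibitor, almost all of it *Nkg7*, while *Cd3e* and *Cd8a* were below 1 in every mouse. Of the 5 tested, 1 was higher at an unadjusted p under 0.05 (against 6.57% of all tested genes) and 0 lower (9.4%). Log2 differences were 0.92 for *Nkg7*, 0.41 for *Cd3d* and 0.16 for *Cd3g*, but -0.23 for *Klrb1c* and -0.55 for *Ncr1*. All but *Nkg7* had overlapping groups. The 6 erythroid markers summed to 3.44, 3.52 and 0.743 with vehicle and to 8.13, 6.68 and 51.4 with JAK inhibitor, mostly *Hba-a1* in JAK inhibitor-treated mouse 3. Of the 5 erythroid markers tested, 2 were higher (against 6.57%) and 0 lower (9.4%) at an unadjusted p under 0.05.

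The other marker sums overlapped between the groups. The 11 neutrophil markers measured, led by *S100a8*, summed to between 17207 and 24115 with vehicle and between 17300 and 24430 with JAK inhibitor, with 3 lower (against 9.4% of all tested genes) and 3 higher (6.57%) at an unadjusted p under 0.05. The sum hides these opposite differences, for *Camp*, *Elane* and *Mpo* were higher and *Mmp8*, *Cxcr2* and *Il1r2* lower, each without overlap. The 8 monocyte lineage markers, led by *Lyz2*, summed to between 28555 and 37815 with vehicle and between 29065 and 38476 with JAK inhibitor, most of it *Lyz2*, with 2 lower (against 9.4%) and 0 higher at an unadjusted p under 0.05. Of these, *Fcgr1*, an antibody receptor, had FPKM values of 6.74, 6.60 and 12.2 with vehicle and of 3.47, 3.21 and 2.73 with JAK inhibitor. Its groups did not overlap, and vehicle-treated mouse 3 was the highest. The other lower marker was *Itgam* (log2 difference of -0.34), with overlapping groups. Groups also overlapped for *Cx3cr1* (0.36), *Ly6c2* (0.18), *Ccr2* (0.01), *Lyz2* (0.01), *Csf1r* (-0.03) and *Cd68* (-0.08). Sums of 6 dendritic cell markers, led by *Bst2*, lay between 69.1 and 103. Of the 5 tested, 1 was higher (against 6.57% of all tested genes) and 0 lower (9.4%) at an unadjusted p under 0.05. Sums of 6 B cell markers lay between 27.5 and 35.7, all but *Cd79b* being below 1 and *Ms4a1*, *Ebf1* and *Pax5* at 0 in every mouse. Of 7 osteoblast and stroma markers, *Runx2* alone reached 1 and *Sp7* was at 0, with sums between 3.15 and 7.07.

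**Figure D5:**
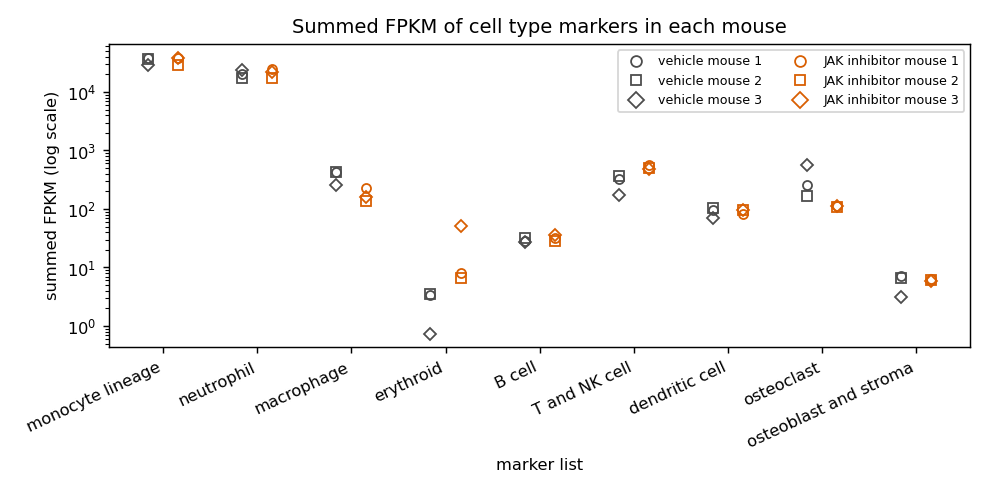
Summed FPKM on a log scale of 9 lists of cell type markers in each of the 3 vehicle-treated and 3 JAK inhibitor-treated mice. Sums of the macrophage and osteoclast markers were lower, and those of the T and NK cell and erythroid markers higher, in every JAK inhibitor-treated mouse, and the other 5 sums overlapped. Among the macrophage markers, *Adgre1* had overlapping groups and *Vcam1* had a higher mean with JAK inhibitor. The T and NK cell sum was almost all *Nkg7*. With JAK inhibitor, *Cd3d* and *Cd3g* also had higher means, whereas *Klrb1c* and *Ncr1* had lower ones.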

How the data were processed

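Values of 6 mice, 3 per group by the labels, were used as FPKM tables deposited by the authors, with 24346 symbols of which 8100 were at 0 in every mouse. Before deposit the authors computed the FPKM values from reads with tools that their processing notes list as TopHat2 2.0.13, Bowtie2 2.2.3, SAMtools 0.1.19 and Cufflinks 2.2.1, on mm10, without roles or annotation. SMART-Seq HT and Nextera kits are named in the labels, and a TruSeq Stranded mRNA kit in the methods. With no read counts used, counting intervals are not given.

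In limma 3.58.1 (R 4.3.3), log2(FPKM + 1) of the 11301 genes reaching 1 FPKM in any mouse was fitted with a linear model, moderated with a mean trend and adjusted by Benjamini-Hochberg, and this was tried on simulated data. There, 200 of 11030 genes were changed by 1.5 on the log2 scale. Of these, 90.5% were recovered, and 6.70% of the genes called were false. Only genes of higher mean were changed, and noise was drawn as normal and independent, with no mouse set apart. The change was larger than that of any NF-κB gene here (-1.06 at most, for *Tnfaip3*), so this share recovered does not apply to them. Exact permutation tests, 2-sided, were added for genes. The members and lists were chosen with earlier results of these data known. Genes named are all members, of each list described the 5 of smallest limma p whose mean FPKM was 1 or more, and *Socs3*, *Ikbkb*, *Chuk*, *Ikbkg*, *Nfkbib*, *Tnf*, *Il1b*, *Cxcl2*, *Cxcl10* and *Irf1*. *Vcam1*, *Map3k14* and neutrophil markers besides *S100a8*, outside this rule, were named after their values were seen. So were monocyte lineage markers besides *Lyz2*, macrophage markers besides *C1qb*, and T and NK cell markers besides *Nkg7*. The markers *Ly6g* and *Trac* were not analysed here. Settings varied were the pseudocount (0.1), the filter (none, or 1 FPKM in 3 mice), quantile or median-ratio scaling, the trend, library weights, a block for replicate number, and leaving out each mouse, 14 in all. Positions are from GENCODE M21 and promoters from RefSeq. Other work used Python 3.11.15 with SciPy 1.17.1, NumPy 2.4.6, pandas 2.3.3 and matplotlib 3.10.9.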

Additional observations from a re-analysis of the deposited data

How the results depend on the processing

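Of the 10 NF-κB genes, 9 had the same direction under all 14 alternatives, and *Nfkbie* (-0.12) turned to 0.016 with library weights and ranged from -0.29 to 0.12 with 1 mouse left out. Quantile normalization and scaling by the median ratio left the median of the 10 genes at -0.30. All genes past the adjusted threshold, 15, numbered 2 with no filter, 34 with the filter in 3 mice, 2 with no trend, 63 with library weights and 3 to 95 with 1 mouse left out. NF-κB genes past it numbered 2 with the filter in 3 mice, 2 with library weights and 0 to 2 with 1 mouse left out. These were *Nfkbia* (-1.01 with the filter, adjusted p = 0.0482; -0.88 with weights, 0.0263; -1.16 to -0.80 with 1 mouse left out) and *Tnfaip3* (-1.06, 0.0492; -1.002, 0.0288; -1.21 to -0.92). With limma, members higher at an unadjusted p under 0.05 numbered 0 with no filter and 0 to 1 with 1 mouse left out. The cause of these moves was not tested. The filters change the genes tested, but unadjusted p values moved with them too. For *Nfkbia* the limma p was 0.000185 in the main setting, 0.0019 with no filter and 0.000138 with the filter in 3 mice.

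Same-numbered mice of the 2 groups did not deviate together (correlations of 0.016, 0.054 and -0.00016 across genes). Such correlations over all tested genes cannot exclude a pairing that affected only some genes. With the replicate block 67 genes passed the adjusted threshold, 2 of them NF-κB genes, *Nfkbia* (-1.01, adjusted p = 0.0397) and *Bcl3* (-0.84, 0.0499), and 2 members, *Nfkbiz* and *Rel* (unadjusted p = 0.0414), were higher at an unadjusted p. Not every mouse was most like its own number.

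*Cxcl10* (0.13) was -0.24 with library weights and ranged from -0.41 to 0.51 with 1 mouse left out, and *Ikbkg* (-0.11) ranged from -0.24 to 0.018. Of 391 values of the 28 non-member genes named by the rule above, 364 kept their direction and side of the adjusted threshold. Another 23 passed it newly and 4, all of *Cxcl10* or *Ikbkg*, changed direction. Genes named outside that rule, such as *Vcam1* and *Fcgr1*, were not included. Depth in reads is unknown, so the counting error of low values such as those of *Rel* or *Cxcl2* cannot be given.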
